A study of Mus musculus with 5 samples.

Results

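The nuclear genes of the respiratory chain were compared between tumor macrophages of a MEK1-low and a MEK1-hi group. Genes were taken by symbol from the authors' deposited Cuffdiff table (Ndufa, Ndufb, Ndufc, Ndufs and Ndufv for complex I, Sdha to Sdhd for complex II, Uqcr and Cyc1 for complex III, Cycs for cytochrome c, Cox4 to Cox8 for complex IV, Atp5 for complex V). Of 24982 rows in the table, 90 matched, and 83 of these were among the 12311 rows that Cuffdiff tested. The tested members were 39 genes of complex I, 4 of complex II, 9 of complex III, Cycs, 15 of complex IV and 15 of complex V.

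The RNA came from macrophages isolated from tumors that a mouse fibrosarcoma line, 9609 (labelled MCA, the usual short form of methylcholanthrene), had formed. The MEK1-low group of 2 libraries carries MEK1-low as its cell line and genotype, and its treatment is given as exosomes of MEK1-low cells with the note GFP. The MEK1-hi group of 3 libraries carries MEK1-hi as its cell line and genotype and was treated with MEK1-hi exosomes (exosomes are small vesicles that cells release). MEK1 is the kinase that activates ERK, and Map2k1, which encodes it, had 38.4 FPKM in the MEK1-low macrophages and 41.5 FPKM in the MEK1-hi macrophages. Both groups stem from the same tumor line, age and strain of the mice are not stated in the labels, and the title contrasts rejecting with growing tumors without saying which group is which.

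The respiratory chain sits in the inner mitochondrial membrane. Complexes I and II pass electrons from NADH and succinate to ubiquinone, complex III hands them to cytochrome c, and complex IV delivers them to oxygen. Complexes I, III and IV pump protons, and complex V, the ATP synthase, lets them flow back to make ATP. Most subunits are encoded in the nucleus and a few in mitochondrial DNA. In macrophages the balance between this chain and glycolysis is known to shift with the activation state, and succinate oxidation at complex II is linked to inflammatory signalling.

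All levels below are FPKM (fragments normalized to transcript length and library size). Each group has 1 pooled value and therefore no SD, and a log2 difference is log2 of the MEK1-hi over the MEK1-low FPKM. A gene was called when the Cuffdiff q value in the authors' deposited table was under 0.05. The labels do not say whether the libraries came from separate animals, so these tests reflect the spread of the 5 libraries alone, which may be technical. In this bulk RNA, fewer cells of a type and less RNA per cell cannot be told apart.

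The macrophage identity of the samples was visible in both groups: the summed level of 10 macrophage markers such as Lyz2, C1qa and Csf1r was 13972 FPKM in MEK1-low and 16410 FPKM in MEK1-hi, and 0 of the 10 were called. The markers did not share a direction: 6 were higher in MEK1-hi and 4, Csf1r among them, were lower. With equal FPKM sums the split was 5 and 5. Markers of other cells differed between the groups. All 9 tested fibroblast and tumor markers had lower values in MEK1-hi (summed 1229 against 742 FPKM, 2 called), and all 4 dendritic cell markers had higher ones (6.29 against 16.7 FPKM, 2 called). Klrk1 was called higher (5.27 against 18.1 FPKM), while the other NK markers, Ncr1 and Klrb1c, were under 0.1 FPKM in both groups. Of the 5 T cell markers none was called. Cd4 had 27.8 and 19.3 FPKM, and the other 4 had higher values in MEK1-hi, such as Cd8a at 1.15 and 2.88 FPKM, with a list median of 0.97 log2. The B cell, neutrophil and endothelial lists held no called gene. The part of these other cells in the values below was not tested.

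None of the 83 tested members was called, in a table where 1.32% of tested genes were. At an unadjusted p under 0.05, which 6.08% of all tested genes passed, 3 members passed, all with the higher value in MEK1-hi. That is 3.61% of the members, close to the 3.5% of all tested genes that passed in that direction, and 0 members passed in the other direction against 2.58% of the table. The median log2 difference of the members was -0.03, with 35 above 0 and 48 below, and that of all 11116 tested genes with at least 1 FPKM was -0.02. The direction of the split follows the scaling: with both groups set to the same FPKM sum it was 24 above and 59 below, and with the median of all tested genes set to 0 it was 41 and 42. The members also lay near 0 in size. Their median absolute log2 difference was 0.10 against 0.16 for all tested genes, and 60 members (72.3%) lay within 0.2 of 0 against 58.6% of all tested genes. Among abundant genes, with a mean of at least 50 FPKM, 54 of 61 members (88.5%) lay within 0.2 against 1015 of 1613 genes (62.9%). At this level the split also differed: 24 of 61 members (39.3%) lay above 0, with a median of -0.03, against 977 of 1613 genes (60.6%), with a median of 0.05. With equal FPKM sums 15 of the 61 members lay above 0, and with the median of all tested genes set to 0 it was 29. The 1613 genes were not recounted under these scalings. The smallest log2 difference that Cuffdiff called anywhere in the table was 0.82 in size. It was exceeded by Ndufa4l2, Cox6a2 and Ndufb4c alone among the members, whose mean levels were 1.03, 3.58 and 2.87 FPKM.

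**Figure D1:**
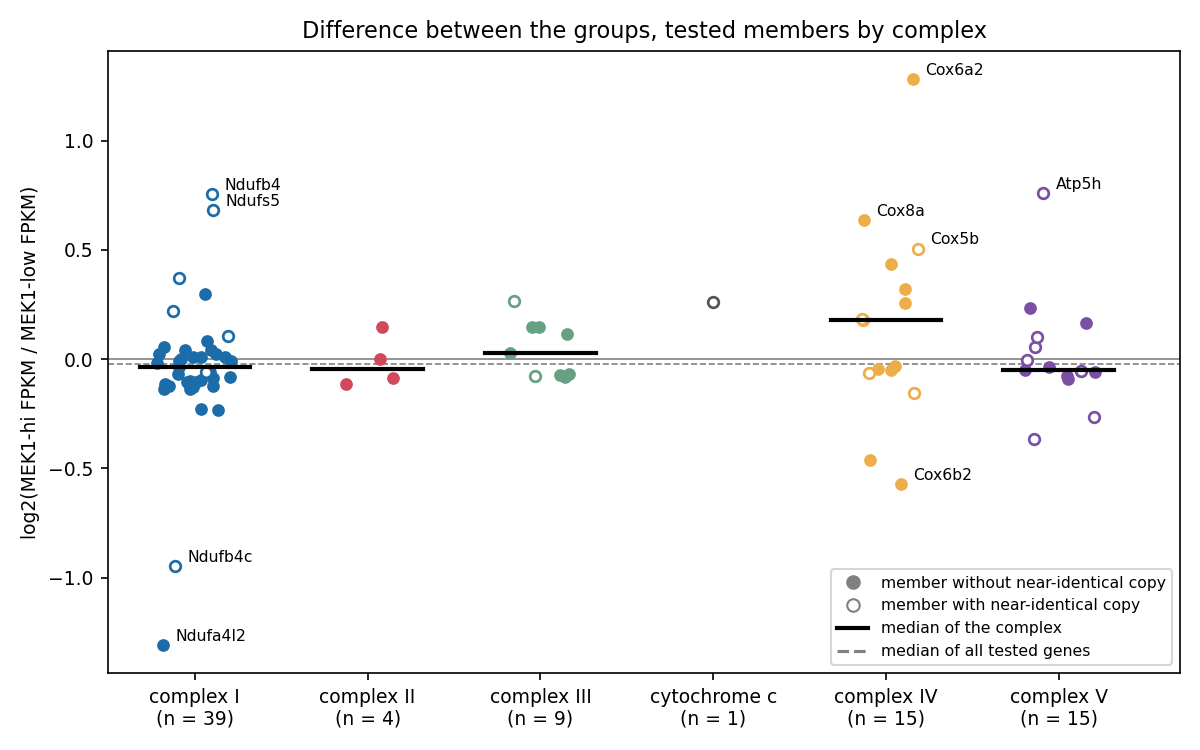
Log2 of the MEK1-hi over the MEK1-low FPKM (vertical axis) for each tested member, grouped by complex, with points spread sideways for legibility. Black bars are medians, open circles are members with a near-identical copy elsewhere in the genome, and the dashed line is the median of all tested genes. The members gather around 0 in complexes I, II, III and V. Complex IV lies farthest from 0, with a median absolute difference of 0.26 (0.17 for its common subunits).

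The levels themselves were high. The median member had 88.0 FPKM in MEK1-low and 87.5 FPKM in MEK1-hi, against 11.2 and 11.1 FPKM for all tested genes. The most abundant members were Cox4i1 and Cox6b1 of complex IV, Atp5b, Atp5e and Atp5g3 of complex V and Cox8a of complex IV, with means from 356 to 539 FPKM. The lowest tested members were Ndufa4l2, Cox4i2, Cycs and Ndufb4, with means from 1.03 to 1.22 FPKM.

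**Figure D2:**
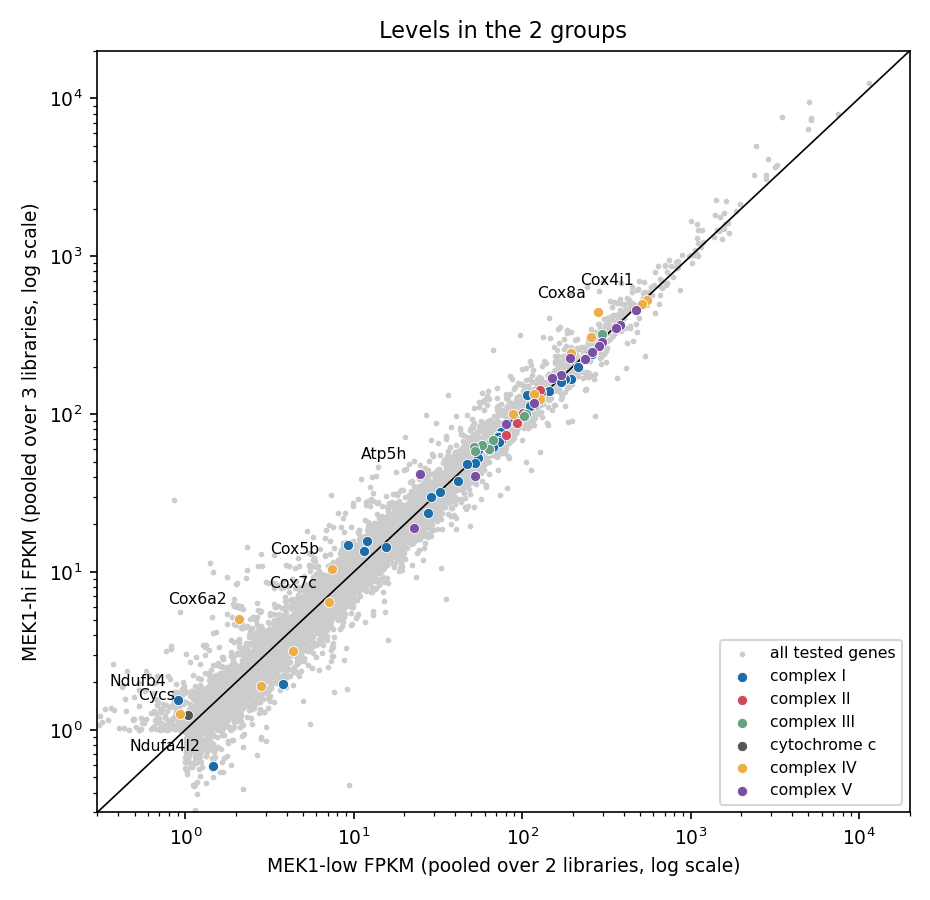
FPKM in MEK1-low (horizontal) and MEK1-hi (vertical) for the members, colored by complex, and for all tested genes in grey, both axes on a log scale. Members at high levels lie along the line of equal values, Cox8a lies above it at 284 and 441 FPKM, and the members that stray farthest are those with a few FPKM.

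Complex I oxidizes NADH and is the largest complex of the chain. Its 39 tested members had a median log2 difference of -0.03, with 15 above 0 and 24 below, and none was called. Set to equal FPKM sums the split was 6 above and 33 below, and with the median of all genes at 0 it was 19 and 20. The summed level was 3131 FPKM in MEK1-low and 3046 FPKM in MEK1-hi.

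The 7 core subunits, which carry the flavin, the iron-sulfur clusters and part of the ubiquinone site, had a median difference of 0.01. The same median was -0.09 with equal FPKM sums. Ndufv1, which binds NADH and the flavin, had 52.6 FPKM in MEK1-low and 48.9 FPKM in MEK1-hi, and its partner Ndufv2 had 46.9 and 48.4 FPKM. Ndufs8 had 89.4 and 90.9 FPKM, and Ndufs7 had 65.0 and 65.5 FPKM. Of these 4, Ndufv1 was farthest from equality at a log2 difference of -0.11. Farther apart were 2 less abundant core subunits. The largest core subunit, Ndufs1, had 27.6 and 23.5 FPKM (log2 -0.23), and Ndufs3 had 12.1 and 15.6 FPKM (log2 0.37). A near-identical copy, Gm12251, matched the Ndufs3 coding sequence at 98.6%.

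The other subunits of complex I surround this core and are needed for its assembly and stability. The most abundant were Ndufa3 at 258 and 241 FPKM and Ndufa4 at 214 and 198 FPKM. Ndufa4 was named as a complex I subunit and is now placed in complex IV. Ndufa7 had 195 and 166 FPKM, the lowest log2 difference (-0.23) among the complex I members with a mean of at least 50 FPKM. Ndufa6, a small accessory protein of the LYR family, had 107 and 131 FPKM, the highest in that set (log2 0.30). The rest of the abundant accessory genes had log2 differences from -0.14 (Ndufb6) to 0.11 (Ndufb11). Of those closer to equal, Ndufb8 had 144 and 141 FPKM, Ndufb9 had 112 FPKM in both groups, and Ndufv3 had 113 FPKM in both groups.

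The largest differences in complex I were all in genes at low levels. Ndufs5, an accessory subunit on the intermembrane side, had 9.29 FPKM in MEK1-low and 14.9 FPKM in MEK1-hi (log2 0.68). Ndufb4 had 0.910 and 1.54 FPKM (log2 0.76), and the processed pseudogene Ndufb4c had 3.78 and 1.96 FPKM (log2 -0.95). Ndufa4l2, a hypoxia-induced relative of Ndufa4, had 1.46 and 0.591 FPKM (log2 -1.31). Its row shares a locus with Shmt2, which had 52.6 and 37.3 FPKM. All 4 had a Cuffdiff q of 0.9998 in the authors' deposited table, and the members at low levels did not share a direction.

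Ndufs5 and Ndufb4 also have near-identical copies with rows of their own. Ndufb4c is the copy of Ndufb4, identical over its 387 aligned coding bases. The Ndufs5 pair is shown because the copy's row had the higher level and the sequences differ. The coding sequence of Ndufs5 (mm10 chr4:123712710-123718202, minus strand) was compared with GENCODE M21 transcripts elsewhere in the genome. It matched the processed pseudogene BC002163 (mm10 chr16:42955631-42955949, plus strand), listed in the table as Ndufs5-ps, over 318 bases with 2 mismatches (99.4% identity). The first 200 of these bases hold both mismatches, in capitals, and are, 5′ to 3′:
Ndufs5: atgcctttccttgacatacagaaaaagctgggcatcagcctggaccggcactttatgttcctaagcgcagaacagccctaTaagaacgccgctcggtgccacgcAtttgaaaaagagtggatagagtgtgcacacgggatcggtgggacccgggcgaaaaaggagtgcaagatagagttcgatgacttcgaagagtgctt
BC002163: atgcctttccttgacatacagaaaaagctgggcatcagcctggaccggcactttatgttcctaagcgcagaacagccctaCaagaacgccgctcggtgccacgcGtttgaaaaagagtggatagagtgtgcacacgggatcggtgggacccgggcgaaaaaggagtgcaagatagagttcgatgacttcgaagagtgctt
Ndufs5-ps had 41.5 FPKM in MEK1-low and 37.8 FPKM in MEK1-hi, so the pseudogene row was higher than the gene row in both groups. The table's Ndufs5-ps row spans a 735 kb locus with Zbtb20 and 2 other genes. How reads that fit both sequences were divided is not stated for this table.

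Complex II, succinate dehydrogenase, belongs to both the citric acid cycle and the chain, and all its subunits are nuclear. Its 4 genes had levels of the same order, and their log2 differences ranged from -0.11 to 0.15. Sdha, the flavoprotein that oxidizes succinate, had 80.1 FPKM in MEK1-low and 74.1 FPKM in MEK1-hi. Sdhb, the iron-sulfur subunit, had 127 and 141 FPKM. The membrane anchors were Sdhc at 93.2 and 87.6 FPKM and Sdhd at 102 FPKM in both groups. The values for Sdhd differed least of all 83 members. Sdhb alone lay above 0, and the median was -0.04. With the median of all genes set to 0 the split was 2 above and 2 below. The sum was 402 FPKM in MEK1-low and 405 FPKM in MEK1-hi, a ratio of 1.01 that became 0.939 with equal FPKM sums, so the direction of the sum depended on the scaling.

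Complex III, the cytochrome bc1 complex, had 9 tested members with a median log2 difference of 0.03, and 5 lay above 0. With equal FPKM sums the median was -0.07 and 4 lay above 0. Of the catalytic subunits, Cyc1 (cytochrome c1) had 66.7 FPKM in MEK1-low and 68.1 FPKM in MEK1-hi. Uqcrfs1 (the Rieske iron-sulfur protein) had 57.6 and 63.8 FPKM. Both lay above 0, while the paired core proteins lay below it. Uqcrc1 had 105 and 99.4 FPKM, and Uqcrc2 had 63.1 and 60.3 FPKM. Among the small subunits Uqcrh, the acidic hinge protein that contacts cytochrome c1, was the most abundant at 297 and 322 FPKM. Uqcr10 had 237 and 226 FPKM, Uqcr11 had 103 and 97.3 FPKM, and Uqcrq had 52.5 and 58.1 FPKM. Uqcrb, which helps form the ubiquinone pocket, had the highest difference at 51.8 and 62.3 FPKM (log2 0.27). Its coding sequence has 3 near-identical copies. The complex summed to 1034 FPKM in MEK1-low and 1057 FPKM in MEK1-hi, a ratio of 1.02 that was 0.954 with equal FPKM sums.

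Cytochrome c, the mobile carrier between complexes III and IV that also triggers the apoptosome when released, stood out by its low level. Cycs had 1.04 FPKM in MEK1-low and 1.25 FPKM in MEK1-hi, against a median of 66.7 and 68.1 FPKM in complex III. Its coding sequence has 4 near-identical copies, of which Gm10053 matched all 315 aligned bases. The part of these copies in the low value was not tested.

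Complex IV, cytochrome c oxidase, lay farthest from 0 by median size. Its 15 tested members had a median absolute log2 difference of 0.26, against 0.10 in complexes I and II, 0.08 in complex III and 0.08 in complex V. It was 0.17 for the 10 common subunits and 0.52 for the 4 tissue-restricted isoforms, whose mean levels were 1.09 to 3.75 FPKM. The median of the 15 members was 0.18 with 8 above 0 and 7 below. With equal FPKM sums the median was 0.08, with the same split. For the 10 common subunits alone the median was 0.08, with 5 above 0 and 5 below, and -0.02 with equal FPKM sums. The median of the 15 members also depended on which genes are counted. With Ndufa4 and Ndufa4l2 moved in and the supercomplex factor Cox7a2l left out it was -0.04. The summed level was 2416 FPKM in MEK1-low and 2656 FPKM in MEK1-hi, a ratio of 1.10 that was 1.03 with equal FPKM sums. Of the 239 FPKM between these sums, Cox8a accounted for 157, and without Cox8a the sums were 2133 and 2215 FPKM.

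**Figure D3:**
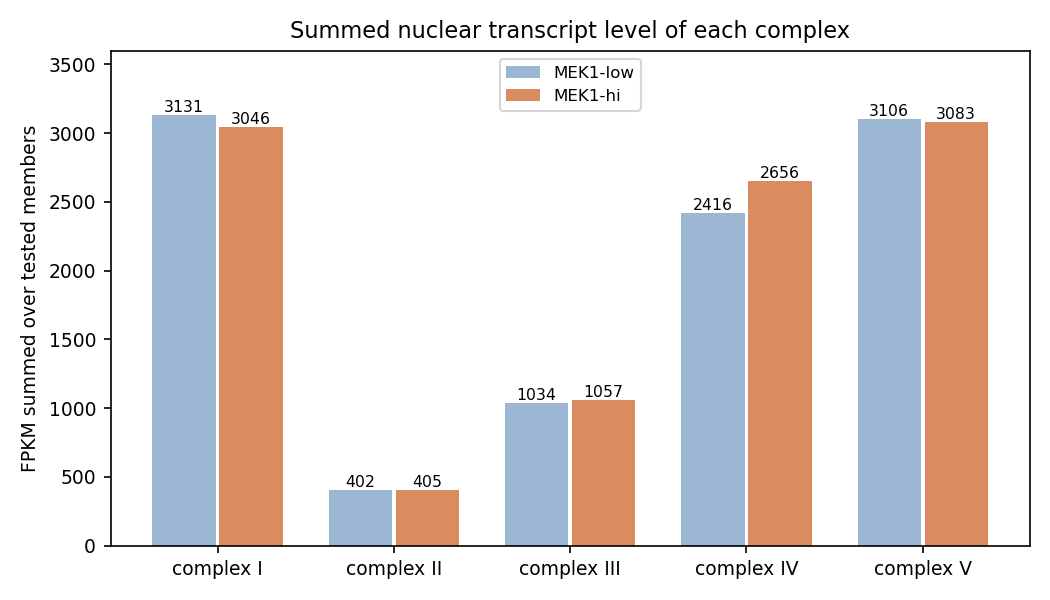
FPKM summed over the tested members of each complex (bars from 0), MEK1-low and MEK1-hi side by side, with no error bars because each group has 1 pooled value. The ratio of the MEK1-hi to the MEK1-low sum was 0.973 in complex I, 1.01 in complex II, 1.02 in complex III, 1.10 in complex IV and 0.993 in complex V.

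Cox8a (mm10 chr19:7215158-7217616), the widely expressed form of a small membrane subunit, had the lowest p of all members. Its value was 284 FPKM in MEK1-low and 441 FPKM in MEK1-hi, a fold of 1.55 (log2 0.64), with a Cuffdiff p of 0.0077 and a q of 0.275 in the authors' deposited table. Its difference was the highest among the 61 members with a mean of at least 50 FPKM, ahead of Cox5a at 0.32, and no near-identical copy of its coding sequence was found. The other 9 common subunits had a median of -0.03, with 4 above 0 and 5 below. Cox5a, which sits on the matrix side, had 196 and 245 FPKM (log2 0.32), and Cox6a1 had 256 and 306 FPKM (log2 0.26). Cox7b had 88.0 and 99.9 FPKM (log2 0.18). These 3 had the higher value in MEK1-hi. Cox4i1 and Cox6b1, the most abundant of the complex, and Cox6c had lower values there, with log2 differences from -0.06 to -0.05. Cox4i1 had 547 and 531 FPKM. Cox6b1, on the intermembrane side, had 513 and 496 FPKM, and Cox6c had 263 and 251 FPKM. Cox7a2 had 127 and 125 FPKM. Subunits that occur together in each enzyme molecule thus had values on both sides of equality. Cox7a2l, which joins complexes III and IV into supercomplexes, had 118 and 133 FPKM.

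Cox5b, the zinc-binding subunit, and Cox7c were far below the other 8 common subunits. Cox5b had 7.39 FPKM in MEK1-low and 10.5 FPKM in MEK1-hi (log2 0.51), and a copy, Gm11273, matched its coding sequence at 99.2%. Cox7c had 7.14 and 6.41 FPKM. The Cox7c sequence is shown because a second row of the table holds the same letters. Its whole coding sequence of 189 bases (mm10 chr13:86044816-86046904, minus strand, GENCODE M21) is, 5′ to 3′:
Cox7c: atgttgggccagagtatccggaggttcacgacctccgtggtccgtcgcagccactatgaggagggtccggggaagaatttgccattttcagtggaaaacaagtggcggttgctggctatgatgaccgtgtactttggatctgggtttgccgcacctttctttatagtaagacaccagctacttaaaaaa
The processed pseudogene Gm12338 (mm10 chr11:75599763-75599954, minus strand) has these 189 bases with 0 mismatches. Its row had 179 FPKM in MEK1-low and 162 FPKM in MEK1-hi, a log2 difference of -0.15 beside -0.16 for Cox7c. The level listed for Gm12338 lies between those of Cox7a2 and Cox5a, and that of Cox7c lies below every other common subunit.

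The tissue-restricted isoforms of complex IV were near the lower end of the scale. For the subunit 6a pair, Cox6a1 had the values above and Cox6a2, the heart and skeletal muscle form, had 2.08 FPKM in MEK1-low and 5.07 FPKM in MEK1-hi. This was a fold of 2.43 (log2 1.28), with a Cuffdiff p of 0.0344 and a q of 0.683 in the authors' deposited table. The Cox6a2 row (mm10 chr7:128173946-128206366) shares its locus with the integrin gene Itgad, whose own row had 0.0499 and 0.0646 FPKM. Cox7a1, the muscle form of subunit 7a, had 4.34 and 3.15 FPKM beside 127 and 125 FPKM for Cox7a2. Cox6b2, the testis form of subunit 6b, had 2.80 and 1.88 FPKM. Cox4i2, a lung form that responds to low oxygen, had 0.931 and 1.26 FPKM. The isoforms thus split evenly, Cox6a2 and Cox4i2 with the higher value in MEK1-hi and Cox7a1 and Cox6b2 with the lower. Skeletal muscle and fat markers were low: Ckm had 0.385 and 0.230 FPKM, Acta1 had 0.383 and 0.155 FPKM, Myh4 was listed at 0 in both groups, and Adipoq had 0.0451 FPKM in MEK1-low and was listed at 0 in MEK1-hi. Fabp4, which macrophages also express, had 5.83 and 5.13 FPKM.

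Complex V had 15 tested members with a median log2 difference of -0.05 (-0.15 with equal FPKM sums), 5 above 0 and 10 below. The sum was 3106 FPKM in MEK1-low and 3083 FPKM in MEK1-hi. In the catalytic F1 head, Atp5a1 (alpha) had 286 and 269 FPKM and Atp5b (beta, which holds the catalytic sites) had 476 and 458 FPKM. Atp5c1 (gamma, the rotating shaft) had 170 and 177 FPKM, and Atp5e (epsilon) had 382 and 369 FPKM. Their log2 differences ran from -0.09 in Atp5a1 to 0.06 in Atp5c1. Atp5d (delta) had 192 and 226 FPKM (log2 0.24).

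The peripheral stalk holds the head against rotation, and its 4 genes had a median log2 difference of 0.13, or 0.04 with equal FPKM sums. Atp5h (subunit d, mm10 chr11:115415697-115419919) had 24.8 FPKM in MEK1-low and 42.0 FPKM in MEK1-hi, a fold of 1.69 (log2 0.76), with a Cuffdiff p of 0.0243 and a q of 0.568 in the authors' deposited table. It was also the least abundant of the stalk genes, and its coding sequence has 3 near-identical copies, Gm10250 at 99.0%. Atp5j (F6) had 150 and 168 FPKM, Atp5pb (b) had 80.3 and 86.2 FPKM, and Atp5o (the subunit that confers oligomycin sensitivity) had 118 FPKM in both groups. The other stalk genes thus did not share the size of the Atp5h difference.

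The c-ring, through which protons pass, is encoded by 3 genes with the same mature protein. Atp5g3 had the highest level of the 3, with 360 FPKM in MEK1-low and 352 FPKM in MEK1-hi. Atp5g1 had 52.6 and 40.8 FPKM (log2 -0.37), the lowest difference in the complex, and a copy, Gm10039, matched its coding sequence at 99.8%. Atp5g2 was not tested, at 0.0523 and 0.109 FPKM, and its coding sequence matched 2 copies at 100%. The small membrane subunits, several of which help the enzyme form dimers, lay below 0 in 4 of 4 tested genes, with a median of -0.07. Of all 11116 tested genes with at least 1 FPKM, 5943 lay below 0. The other scalings could not turn these 4: equal FPKM sums lower every log2 difference, and the other raises each by 0.02. The membrane subunits were Atp5k at 296 and 286 FPKM, Atp5j2 at 259 and 249 FPKM, Atp5mpl at 237 and 225 FPKM and Atp5md at 22.9 and 19.0 FPKM.

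The 7 members that Cuffdiff did not test were all near 0. The testis forms Cox8c and Cox7b2 and the muscle form Cox8b were listed at 0 in both groups. Ndufa11b had 0.288 FPKM in MEK1-low and was listed at 0 in MEK1-hi, Cox7c-ps1 had 0.263 and 0.119 FPKM, and Atp5l (subunit g) had 0.371 and 0.181 FPKM. Atp5l is a common subunit, and 9 near-identical copies of its coding sequence were found, the most of any member.

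Low listed levels thus met near-identical copies in several common subunits, and this was counted over the members. Of 89 members with a GENCODE M21 sequence, 25 had a copy elsewhere with at least 95% identity over at least 100 bases. Of these, 23 are functional genes, and the others are the pseudogenes Ndufb4c and Cox7c-ps1 (means 2.87 and 0.191 FPKM). The matches of these pseudogenes include Ndufb4 and Cox7c themselves, and both pseudogenes are among the low members counted next. The mean level was under 20 FPKM in 11 of these 25 and in 10 of the 64 without a copy, and the median of the mean level was 33.4 against 91.4 FPKM. The median absolute log2 difference was 0.20 for the 22 tested members with a copy and 0.09 for the 60 without. Of the 14 members with a difference over 0.3 in size, 9 above 0 and 5 below, 10 had a mean under 20 FPKM. Level, copies and size of the difference therefore went together in these genes, and their parts were not tested.

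**Figure D4:**
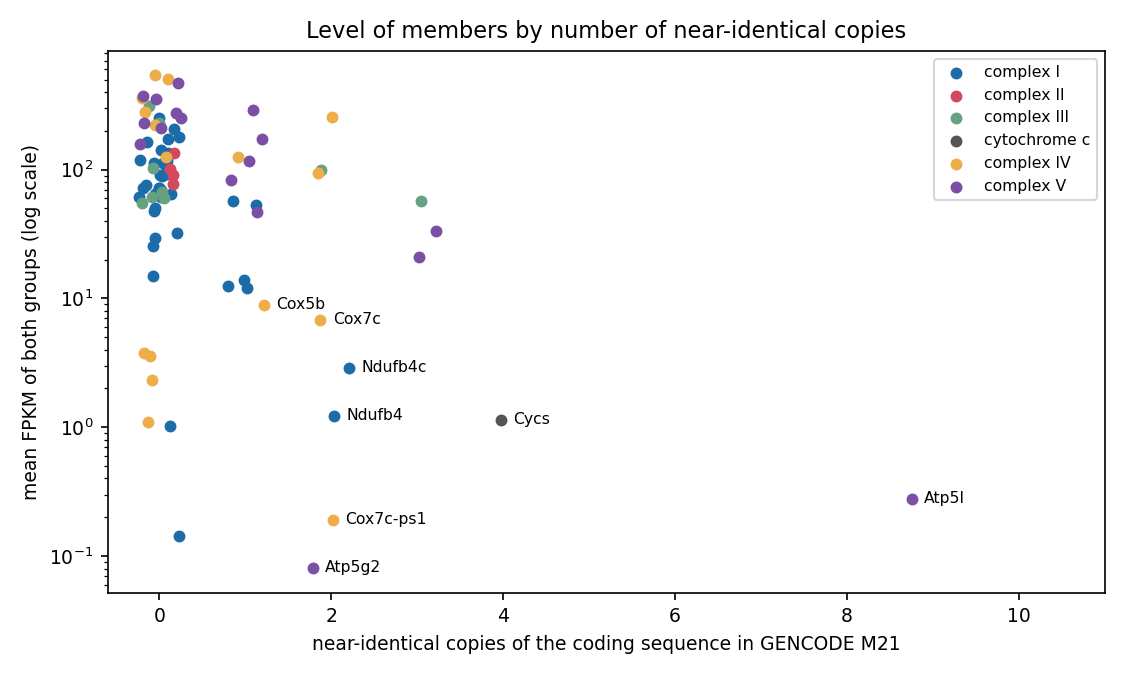
Mean FPKM of both groups (vertical axis, log scale) against the number of near-identical copies of the coding sequence (horizontal axis, points spread sideways), colored by complex as in the other plots. Members listed at 0 or without a GENCODE match are left out. Cox7c, Cox5b, Cycs, Ndufb4 and Atp5l, common subunits with under 10 FPKM, each have at least 1 copy, while Atp5k at 291 FPKM has a copy too.

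The error that Cuffdiff assigned also differed among members. For the 49 members alone in their locus with a mean of at least 50 FPKM, the test statistic in the authors' deposited table was 2.10 to 2.75 times the log2 difference, with a median of 2.69. A smaller ratio means that the same difference counted for less. The median ratio was 1.39 for the 10 members under 20 FPKM that are alone in their locus. Ndufs7 and Atp5d share a 672 kb locus on chromosome 10 that holds 49 rows, and their ratios were 0.22 and 0.45. The Atp5d values of 192 and 226 FPKM therefore gave a Cuffdiff p of 0.932 in the authors' deposited table.

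The promoters of the members were searched for motifs of factors known to regulate respiratory genes, in the RefSeq windows of 300 bases (250 before the start and 50 after, build GRCm38.p6) that matched 69 members. The searches were for an NRF1-type motif (its matches stand in capitals in the Atp5k and Sdhd promoters printed after this), an ETS-type motif (CCGGAAGT), a YY1-type motif (AAGATGGC) and an ERR-type motif (TCAAGGTCA), on both strands, and in these promoters no match overlapped one of another motif. The NRF1-type motif was in 24.3% of the members' promoters against 4.60% of all promoters in the RefSeq set. The YY1-type motif was in 13.5% against 2.75%, the ETS-type motif in 6.76% against 3.89%, and the ERR-type motif in 2.70% against 0.423%. The RefSeq set also holds genes that were not tested here, and the shares among tested genes were not counted. The tested members with the NRF1-type motif had a median log2 difference of -0.01, as had those without. The ETS-type motif was in 5 tested members: Atp5h (log2 0.76), Cox8a (0.64), Ndufs3 (0.37), Uqcrh (0.12) and Uqcr11 (-0.08), with a median of 0.37 against -0.01 for the 60 without it. This is a description of 5 genes, with no test.

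The promoter ends of 4 members that hold a motif near the start are printed here as examples. Each has 98 bases before and 2 bases after the start on the gene's own strand, with the motif matches in capitals. Other abundant members with a motif near the start, such as Uqcrh (ETS-type) and Atp5c1 (NRF1-type), are not printed. Cox8a (chr19:7217615-7217714) and Atp5h (chr11:115419918-115420017) are the members with the lowest p, and the capitals are the ETS-type motif read on the other strand. Atp5k (chr5:108434398-108434497) and Sdhd (chr9:50603848-50603947), whose values were close to equal, carry the NRF1-type motif. That motif did not go with equal values alone: Atp5h holds it too, upstream of the printed bases, as do Ndufs5 (log2 0.68) and Ndufb4 (log2 0.76). All 4 genes lie on the minus strand of GRCm38.p6.
Cox8a: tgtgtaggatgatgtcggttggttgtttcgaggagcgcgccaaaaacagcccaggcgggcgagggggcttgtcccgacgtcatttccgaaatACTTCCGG
Atp5h: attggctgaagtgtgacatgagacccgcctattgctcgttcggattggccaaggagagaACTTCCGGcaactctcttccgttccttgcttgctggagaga
Atp5k: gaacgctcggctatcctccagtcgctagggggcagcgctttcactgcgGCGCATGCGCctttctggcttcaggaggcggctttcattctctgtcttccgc
Sdhd: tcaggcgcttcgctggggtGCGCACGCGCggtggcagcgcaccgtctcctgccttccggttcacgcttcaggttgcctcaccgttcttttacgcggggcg

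The lists of genes that build and feed the chain also held no called gene. Of the assembly factors, which insert cofactors and join subunits, 0 of 43 tested were called and 0 had an unadjusted p under 0.05, with 23 above 0 and 20 below (14 and 29 with equal FPKM sums). The most abundant for complex IV was Cox17, a copper chaperone, at 136 and 139 FPKM, and for complex III Uqcc2 at 109 and 101 FPKM. For complex I the most abundant were Tmem126a at 36.5 and 32.5 FPKM and Ndufaf8 at 23.8 and 32.9 FPKM. The 19 listed complex IV factors included 16 tested, with a median of 0.10 that was 0.00 with equal FPKM sums.

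The citric acid cycle enzymes outside complex II, which supply NADH, gave 0 called of 13 tested. Their values were lower in MEK1-hi in 12 of 13, with a median log2 difference of -0.10. Of all 11116 tested genes with at least 1 FPKM, 5943 were lower. The count of 12 was the same under the other scalings, which could not change it. Equal FPKM sums lower every log2 difference, and the other scaling raises each by 0.02, less than the size of these 12. Mdh2, the malate dehydrogenase, had 192 and 173 FPKM, and Idh3b, of the NAD-dependent isocitrate dehydrogenase, had 80.3 and 78.8 FPKM. Suclg1, a subunit of succinyl-CoA ligase, was the exception at 38.1 and 43.0 FPKM. The largest difference was in Ogdh, of the 2-oxoglutarate dehydrogenase, at 35.3 and 30.9 FPKM (log2 -0.20).

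Other routes into ubiquinone gave 0 called of 6. Etfb, of the electron transfer flavoprotein of fatty acid oxidation, had 72.8 and 64.0 FPKM, and its partner Etfa had 24.3 and 27.6 FPKM. Regulators of mitochondrial biogenesis gave 0 called of 10, with a median of -0.04. The most abundant were Pprc1 at 22.5 and 20.1 FPKM and Yy1 at 16.8 and 18.8 FPKM, while the coactivator Ppargc1a was not tested, at 0.0417 and 0.0111 FPKM. Carriers and channels of the mitochondrial membranes gave 0 called of 7. Ucp2, the uncoupling protein of immune cells, was the most abundant at 706 and 870 FPKM (log2 0.30), followed by the phosphate carrier Slc25a3 at 342 and 362 FPKM. The cytosolic ribosomal protein genes, another set of short and abundant transcripts, had a median of 0.21, with 4 of 81 called higher against 0.999% of the table. None of the 13 subunits encoded in mitochondrial DNA was found by its symbol among the deposited rows, so they were not analysed here.

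**Figure D5:**
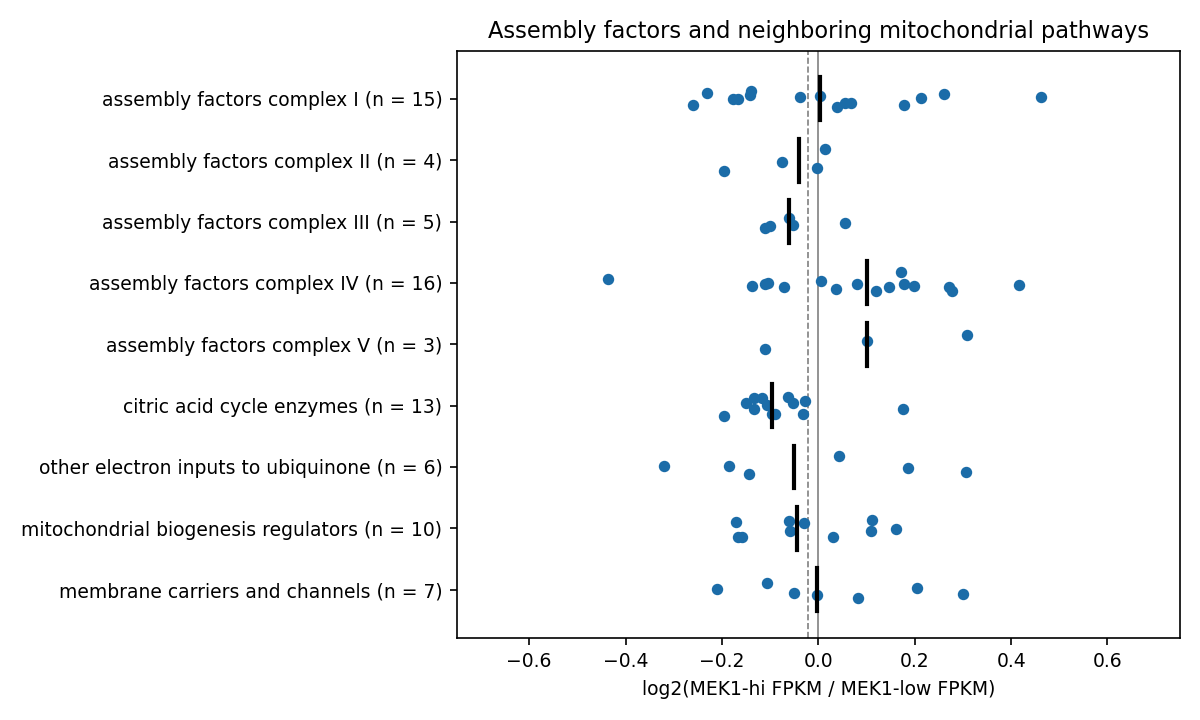
Log2 of the MEK1-hi over the MEK1-low FPKM (horizontal axis) for each tested gene of the assembly factor lists, citric acid cycle enzymes, electron inputs, biogenesis regulators and carriers, 1 row per list. Black bars are medians and the dashed line is the median of all tested genes. The citric acid cycle enzymes lie on the lower side of 0 with 1 exception, and the other lists fall on both sides.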

How the data were processed

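RNA of tumor macrophages, 2 MEK1-low and 3 MEK1-hi libraries, was sequenced. Per the labels' protocols, only RNA of integrity number above 8.0 was used, and stranded poly(A) libraries from 750 ng were read as 100-base pairs to a planned 25000000 reads each. FastQC 0.73, TopHat, Cufflinks, Cuffdiff and mm10 are named per the submitters' processing notes, without roles. Which annotation and strand setting were used is not given in the sources at hand.

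The deposited file is 1 Cuffdiff table. Its FPKM values are the authors' pooled value per group, the authors' test statistic is a score, and the authors also deposited a p-value and a q-value per row. Adjusting the p values by Benjamini-Hochberg over the 12311 tested rows returns the q values. The depth per library is unknown, which leaves no counting interval or floor.

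The log2 difference was computed here from the FPKM values, with no pseudocount. Genes were called at a Cuffdiff q under 0.05, and medians over all tested genes used rows with at least 1 FPKM in at least 1 group. No replicate test was possible from pooled values, and no count model was fitted to FPKM. Members and gene lists were chosen with earlier results of these data known. Genes were named by a rule: in each complex those with a p under 0.05, the 3 highest and 3 lowest differences, the 3 most abundant, isoform pairs, all of complex II, Cyc1 and Cycs, and in each list the 2 most abundant where none passed. Other genes named were chosen after their values were seen, to account for every role.

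Coding sequences of GENCODE M21 (GRCm38, the build of mm10) were matched against its protein-coding and pseudogene transcripts with BLAST 2.17.0. Only the medians and the p-value adjustment were checked on made inputs, and the other steps were not. In the check of the medians the added shift was taken off again, so it could not show whether a shift is recovered. Work was done in Python 3.11.15 with pandas 2.3.3, numpy 2.4.6, Biopython 1.88 and matplotlib 3.10.9. Coordinates are 1-based. Values of 1 member are not reported here.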

Additional observations from a re-analysis of the deposited data

How the results depend on the processing

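Of 76 values recomputed under alternatives, 68 kept their direction and, for counts, stayed within 1.5 times, though not always their size: with equal FPKM sums the medians were -0.13 in complex I, -0.14 in complex II, 0.08 in complex IV and -0.15 in complex V. Among the 68 are 11 values that could not move, since no row with several symbols matched and every member passed the FPKM filter. Further medians among the 68 could not move either, because the alternative left out no gene of the complex. In complexes II, III and V these were the FPKM filter of 10, structural subunits only and leaving out isoforms. In complex II leaving out members with a copy was another. Other values could change in size but not turn. Equal FPKM sums lower every log2 difference, so the medians of complexes I, II and V and the ratios of sums of complexes I and V could not turn. The other scaling raises each log2 difference by 0.02, less than the size of every median below 0, so it could turn no median. No member passed with q under 0.1 or with a Benjamini-Yekutieli adjustment, under which 0 rows of the whole table passed, and 3 passed at an unadjusted p under 0.05. With equal FPKM sums in both groups, the complex III median was -0.069, the ratio of sums was 0.939 for complex II and 0.954 for complex III, and 6 complex I members lay above 0. With the median of all genes at 0, 2 complex II members lay above 0. Counting structural subunits only gave a complex IV median of -0.039. A pseudocount of 1 could not turn a median, since it changes the direction of no gene and the middle genes of each complex share a direction. An FPKM filter of 10, which left out genes in complexes I and IV only, turned no median. Alternatives chosen after seeing the data were the copy thresholds, at which 40 members (90% identity) or 20 (200 aligned bases) had a copy, and medians without members with a copy or without tissue-restricted isoforms, which turned no direction.

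No paired analysis was possible because the table holds 1 pooled value per group, and for the same reason leaving out each library was not run. Unknown depth limits all values of a few FPKM.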
